A study of Saccharomyces cerevisiae with 8 samples.

Results

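The genes described here are 46 middle and late sporulation genes of the yeast Saccharomyces cerevisiae that build the prospore membrane and the spore wall, chosen by name for their published function, with earlier results of these data known. They are 46 of the 6713 targets listed in every library, and 44 of them were among the 6346 genes with enough counts to be tested. OSW1 and LDS1, both needed in the outer spore wall, did not pass the filter on low counts.

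Poly(A) RNA was measured in 8 libraries of strain BY4743, a diploid laboratory strain given as wild type, in 4 groups with 2 replicates each. Cured cells had lost the [SMAUG+] prion through selective curing, and prion cells carried natural [SMAUG+] and were untreated. SPO libraries came from cells that spent 14 h in SPO medium after saturation, and preSPO libraries from cells grown to saturation for 48 h in preSPO medium. Each 10 ml culture gave 5 ml to each of these harvests. The groups are therefore cured SPO, prion SPO, cured preSPO and prion preSPO. The series-level design mentions overexpression and deletion of VTS1, neither of which appears in any sample label, and groups here follow the sample labels. The labels give no share of sporulated cells and do not say that replicates came from separate isolates, so p-values measure the spread between these libraries.

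During sporulation a diploid cell divides its genome by meiosis and then encloses each haploid nucleus in a new membrane, the prospore membrane. That membrane starts on a plaque that forms on the spindle pole bodies in meiosis, spreads outward behind a protein coat at its leading edge, and closes around the nucleus. A wall is then laid down in layers, with mannan and glucan inside, chitosan above them and dityrosine outermost. Many genes of this kind are switched on by Ndt80, which binds the middle sporulation element in their promoters. Some of them are kept silent in growing cells by Sum1, which binds overlapping letters. [SMAUG+] is a heritable assembled form of Vts1, the yeast Smaug protein, which binds hairpins in mRNA and leads to loss of the bound message.

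CACAAA, a form of the core letters of the middle sporulation element, was searched on either strand. The search covered the 300 bases from 250 before to 50 after the start codon of each gene in the RefSeq annotation of build R64. CACAAA occurred in 35 of 46 member promoters (76.1%), against 18.8% of all 5994 promoters. The longer form GNCACAAA, which contains the core, occurred in 25 members (54.3%), against 4.32% of all promoters. Because many of the genes are known for this element, these shares describe the list and test nothing. Windows of 30 bases are shown for 2 genes that rose in SPO medium in both states and 3 that did not, each read on the strand of its gene and with the GNCACAAA match in capitals.
CRR1: cttttaaaggcGTCACAAAaattatgtaaa
SPO19: aagaaaaaaatGCCACAAAaagtagttgat
SPO77: atataagaaatGTCACAAAatcaaaaatag
SSP1: ggcaaacaggcGACACAAAatcatgaagtc
GAS4: actgaggtagcGGCACAAAaaaacgacaca
The CRR1 window lies at chrXII:568053-568082 on the minus strand. The others lie on the plus strand, SPO19 at chrXVI:304212-304241, SPO77 at chrXII:807222-807251, SSP1 at chrVIII:472636-472665 and GAS4 at chrXV:71178-71207. CRR1 and SPO19 rose in SPO medium, SPO77 fell, and SSP1 and GAS4 passed the test in neither direction. CACAAA occurred in 10 of the 15 promoters of members that rose in both states (66.7%) and in 14 of the 18 of members that rose in neither (77.8%). SPS100, SHC1, SPR3, AMA1 and RRT8, the 5 others that rose in both states, had no CACAAA in this window. Other spellings of the element were not searched, so a promoter without CACAAA may still hold an element.

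MET17, a sulfur assimilation gene used as a check on the labels, had 447 and 13 counts in cured SPO, 1363 and 1 in prion SPO, 0 and 1 in cured preSPO, and 3207 and 3867 in prion preSPO libraries. Its counts separated the states in preSPO medium, and whether that difference bears on the comparisons of states was not tested. The libraries labelled cured SPO replicate 1 and prion SPO replicate 2 therefore stand nearer to the other state for this gene, and the counts of calls, and the calls that are lost, are given without both. Below they are called the libraries that go against their labels, a name that rests on MET17 alone. Whether the labels were exchanged was not tested. Library totals ran between 4650288 and 71684771 estimated counts, both extremes in cured SPO libraries. TAR1, encoded opposite the large ribosomal RNA, took 10.6% to 14.8% of counts in SPO and 3.18% to 8.22% in preSPO libraries, and its part in the results was not tested. VTS1 was counted in every library, with 11.2 to 15.9 CPM in SPO and 29.1 to 61.3 CPM in preSPO libraries. CPM here are estimated counts scaled by library size and TMM factors, so they compare libraries and not genes of different length.

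In SPO medium, all 3 chitosan-layer genes, the glucan-layer genes CRR1 and SPR1 and the late wall gene SPS100 rose in both states. SPO19 and SPO73 of membrane growth, the leading-edge gene DON1 and the septin SPR3 rose in both states too. GAS2 and GAS4 of the glucan layer passed in neither. Plaque and leading-edge genes, which start the prospore membrane, passed in both directions, as did dityrosine-layer genes in cured cells. In cured cells 21 of the 44 tested members were higher in SPO than in preSPO medium and 5 were lower, where 28.6% of all tested genes were higher and 28.6% lower. In prion cells 20 were higher and 3 lower, against 26.2% and 27.1% of all tested genes. Calls are adjusted p under 0.05 in edgeR's quasi-likelihood test with Benjamini-Hochberg adjustment over all tested genes. The median member log2 fold change was 0.74 in cured cells and 0.65 in prion cells, beside 0.03 and 0.00 over all tested genes. The same 15 members rose in both states, 6 more rose in cured cells alone and 5 in prion cells alone, although passing in 1 state is not a tested difference between states. The overlap between states was not counted over all tested genes, so these numbers describe the list alone. SPO77 and ADY3 fell in both states. A total of 13 members passed in neither state: SPS1, SSP2, PES4, SPO74, SSP1, SPO71, SPO1, GAS2, GAS4, DIT2, MUM3, LOH1 and OSW7. Since whole cultures were measured, fewer cells entering sporulation and less RNA in each cell cannot be told apart.

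These counts depend on 2 choices. Without both libraries that go against their labels, 16 members rose and 2 fell in cured cells, and the same numbers held in prion cells. That fit has 1 library in each SPO group, whose spread is taken to be that of the other groups. The calls lost in it were those of GIP1, ADY4, SPR28, SPS22, CDA2, DIT1, DTR1 and OSW2 in cured cells (edgeR adjusted p = 0.067 to 0.149) and of GIP1, MIP6, MPC54, ADY3 and SPO75 in prion cells (edgeR adjusted p = 0.0603 to 0.196), each with its direction kept. Scaling sets the balance between higher and lower, because TMM factors centre the genes, whereas TPM, the deposited levels scaled by gene length and to a fixed sum, and plain library size do not. On log2(TPM + 1) with limma the median of all genes shifted to -0.89 in cured and -0.56 in prion cells, and members split into 9 higher and 13 lower in cured and 10 higher and 4 lower in prion cells. By library size alone the all-gene medians were -0.37 and -0.17, with 15 members higher and 8 lower in cured and 15 higher and 4 lower in prion cells. Changes below are relative to the TMM centre. AMA1, CDA1, CRR1, DON1, SHC1, SPO19, SPO73, SPR3 and SPS100 rose in both states under all 18 alternatives run, and SPO77 fell in both under all 18.

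**Figure D1:**
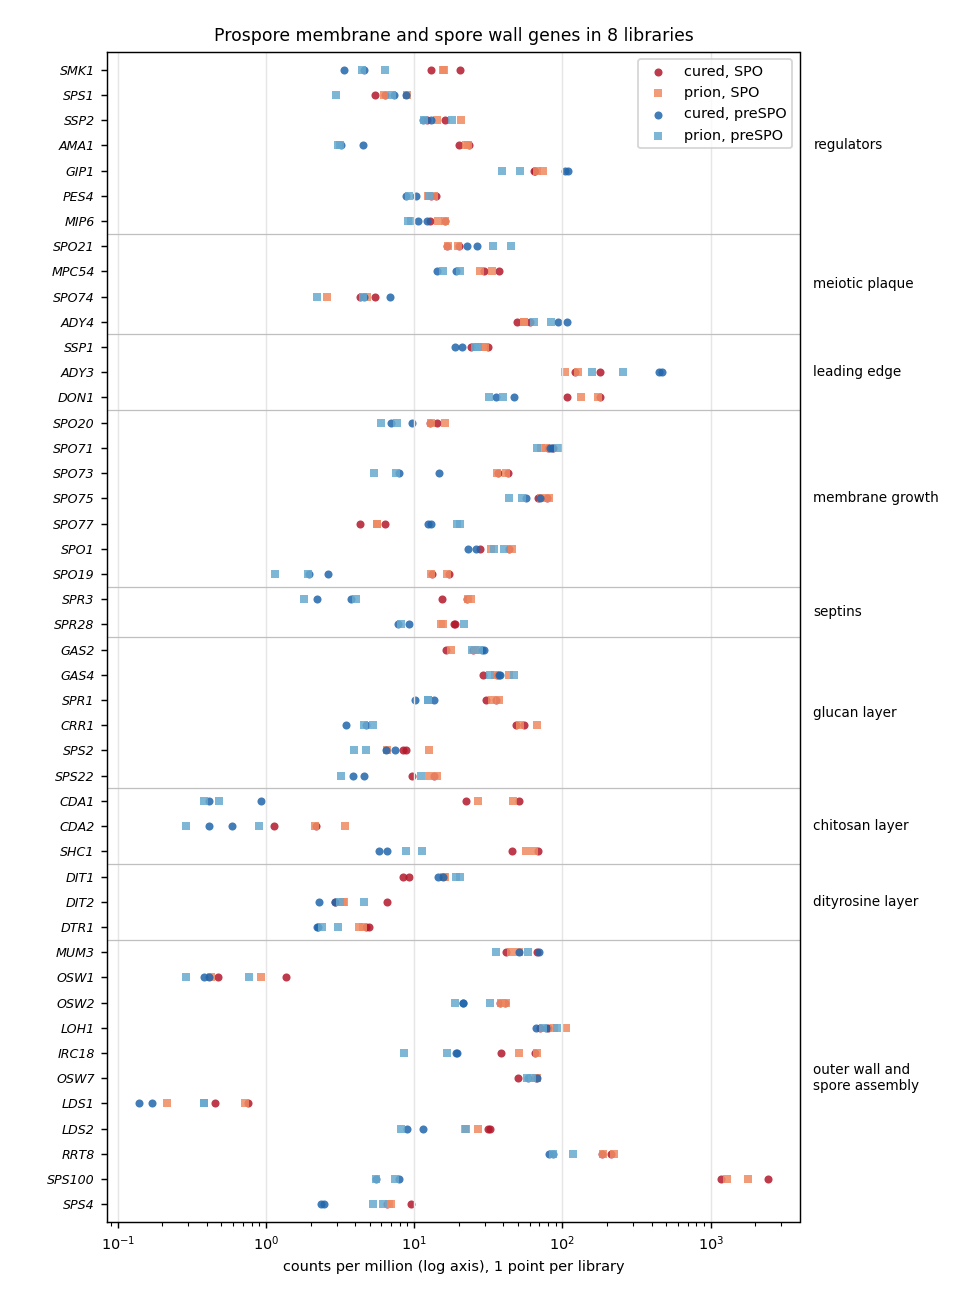
Each row is 1 of the 46 genes, ordered by role, and each point is 1 library on a log axis of CPM, with SPO libraries in red and orange and preSPO libraries in dark and light blue; rows differ in gene length, so levels should be read within a row. SPS100, CDA1, CRR1 and SHC1 have all 4 SPO libraries far to the right of all 4 preSPO libraries, while SPO77 and ADY3 run the other way in both states.

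SPS100 (YHR139C), which encodes a protein of late spore wall maturation, had the largest log2 fold change of the members. It had 2439 and 1181 CPM in cured SPO and 1796 and 1295 CPM in prion SPO libraries, against 5.54 and 7.91 CPM in cured preSPO and 5.50 and 7.40 CPM in prion preSPO libraries. Every SPO library stood far above every preSPO library, and the states overlapped in both media. The log2 fold change was 8.04 ± 0.49 in cured cells (SE, n = 2 libraries a group, edgeR adjusted p = 1.14e-05) and 7.89 ± 0.49 in prion cells (edgeR adjusted p = 1.21e-05). On the TPM scale SPS100 alone made up 45.6% to 67.1% of the summed level of all 46 members in SPO libraries and 0.631% to 0.911% in preSPO libraries. Without it, the members summed to between 378 and 564 TPM in SPO and between 442 and 620 TPM in preSPO libraries, and these ranges overlap. Most members stayed low: their median was 3.95 to 6.82 TPM in SPO and 5.02 to 5.90 TPM in preSPO libraries, beside medians over all targets of 10.99 to 17.4 TPM and 22.2 to 30.7 TPM. In each SPO library 6 members exceeded 20 TPM, against 9 in each cured preSPO and 7 and 4 in the prion preSPO libraries.

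The 9 tested genes of the outer wall and of spore assembly, SPS100 included, gave 6 higher in cured cells, 3 higher in prion cells and none lower. Over all tested genes 28.6% were higher and 28.6% lower in cured cells, and 26.2% and 27.1% in prion cells. RRT8 (YOL048C), a lipid droplet protein that works with LDS1 and LDS2 in assembling the dityrosine layer, had 185 and 212 CPM in cured SPO and 188 and 224 CPM in prion SPO libraries, against 86.7 and 80.8 CPM in cured preSPO and 86.5 and 117 CPM in prion preSPO libraries. All SPO libraries lay above all preSPO libraries, with log2 fold changes of 1.25 ± 0.20 and 1.01 ± 0.20 in cured and prion cells (edgeR adjusted p = 0.00103 and 0.0031). IRC18, a gene of outer wall assembly, rose by 1.44 and 2.21 on the log2 scale in cured and prion cells. LDS2 and SPS4, a sporulation gene, rose in cured cells by 1.63 and 1.76, while their prion log2 values of 0.66 and 0.26 did not pass. In cured cells OSW2, another outer wall gene, had a log2 of 0.89 that passed the test, but not without cured preSPO replicate 1 or without replicate 2 of that group (log2 0.87 to 0.90, edgeR adjusted p = 0.0595 to 0.0602), and on the TPM scale the OSW2 log2 was -0.08. MUM3, LOH1 and OSW7, all needed for the outer wall, had log2 values between -0.14 and 0.23 in both states. OSW1 had 6 and 26 counts in cured SPO, 9 and 6 in prion SPO, 3 and 9 in cured preSPO, and 6 and 3 in prion preSPO libraries. LDS1 had 2 and 41 counts in cured SPO, 7 and 3 in prion SPO, 1 and 4 in cured preSPO, and 3 and 4 in prion preSPO libraries. In the edgeR fit without the low-count filter neither passed: OSW1 had log2 values of 0.90 ± 0.88 and 0.36 ± 0.89 in cured and prion cells (SE), and LDS1 had 2.0 ± 0.87 in cured cells (edgeR adjusted p = 0.0806) and 0.20 ± 0.89 in prion cells.

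All 3 genes of the chitosan layer rose in both states, where 28.6% of all tested genes rose in cured and 26.2% in prion cells. CDA1 (YLR307W), a chitin deacetylase that turns chitin into chitosan, had 22.4 and 50.6 CPM in cured SPO and 27.1 and 46.6 CPM in prion SPO libraries, against 0.415 and 0.931 CPM in cured preSPO and 0.384 and 0.481 CPM in prion preSPO libraries. The preSPO values rest on 3 and 22 counts in cured and 3 and 5 counts in prion libraries, so the size of the fold change is loosely set, yet no SPO library came near a preSPO library. Its log2 fold change was 5.58 ± 0.55 in cured cells (edgeR adjusted p = 8.49e-05) and 6.37 ± 0.62 in prion cells (edgeR adjusted p = 8.67e-05). SHC1 (YER096W), the sporulation activator of chitin synthase III, had 68.9 and 45.4 CPM in cured SPO and 64.6 and 56.7 CPM in prion SPO libraries, against 6.51 and 5.80 CPM in cured preSPO and 11.3 and 8.75 CPM in prion preSPO libraries. The media were fully separated, with a log2 fold change of 3.21 ± 0.26 in cured and 2.61 ± 0.25 in prion cells. CDA2, the second deacetylase, which lies near CDA1 on chromosome XII, reached only 1.13 and 2.19 CPM in cured SPO and 3.42 and 2.13 CPM in prion SPO libraries. Its rises of 1.76 and 2.27 on the log2 scale in cured and prion cells (edgeR adjusted p = 0.0446 and 0.0206) were lost when any of several single libraries was left out: cured SPO replicate 2, either prion SPO or either cured preSPO library for cured cells, with log2 between 1.07 and 2.09, and either prion SPO library or prion preSPO replicate 2 for prion cells, with log2 between 1.61 and 2.56.

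Of the 6 glucan-layer genes, 3 rose in each state, beside 28.6% of all tested genes in cured and 26.2% in prion cells. CRR1 (YLR213C), a glycoside hydrolase that is thought to cross-link wall polymers, had 48.5 and 54.8 CPM in cured SPO and 51.7 and 67.4 CPM in prion SPO libraries, against 3.46 and 4.74 CPM in cured preSPO and 4.61 and 5.29 CPM in prion preSPO libraries. Both SPO groups were separated from both preSPO groups, with log2 fold changes of 3.61 ± 0.24 and 3.58 ± 0.24 in cured and prion cells (edgeR adjusted p = 1.49e-05 and 1.73e-05). SPR1 (YOR190W), an exoglucanase made in sporulation, had 35.8 and 30.6 CPM in cured SPO and 33.2 and 37.2 CPM in prion SPO libraries, against 10.1 and 13.6 CPM in cured preSPO and 12.4 and 12.3 CPM in prion preSPO libraries. These values did not overlap between media either, and the log2 fold changes were 1.46 ± 0.22 in cured and 1.51 ± 0.22 in prion cells. SPS22 and SPS2, related anchored proteins that organise the glucan layer, passed in 1 state each, SPS22 in cured cells at 1.42 and SPS2 in prion cells at 1.13. The SPS22 call was lost without any 1 of the cured or prion SPO or cured preSPO libraries (log2 1.17 to 1.66), and the SPS2 call without prion SPO replicate 1 or either prion preSPO library (log2 0.60 to 1.26). GAS2 and GAS4, the sporulation glucanosyltransferases that lengthen glucan chains, did not pass, with log2 values of -0.47 and -0.20 in cured and -0.26 and -0.03 in prion cells.

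The dityrosine genes did not share a direction. DIT1 (YDR403W), the first enzyme of dityrosine synthesis, had 8.39 and 9.19 CPM in cured SPO and 15.8 and 16.01 CPM in prion SPO libraries, against 15.6 and 14.4 CPM in cured preSPO and 19.2 and 20.4 CPM in prion preSPO libraries. In cured cells both SPO values were below both preSPO values, and DIT1 fell by 0.76 on the log2 scale (SE 0.22, edgeR adjusted p = 0.0165); the call was lost without cured SPO replicate 1 or either cured preSPO library, with log2 between -0.82 and -0.71. In prion cells the log2 of -0.31 ± 0.21 did not pass. DTR1 (YBR180W), the transporter that exports the dityrosine precursor, had 4.76 and 4.98 CPM in cured SPO and 4.25 and 4.48 CPM in prion SPO libraries, against 2.22 and 2.24 CPM in cured preSPO and 3.07 and 2.40 CPM in prion preSPO libraries. SPO values were higher in both states, but only the cured log2 of 1.13 ± 0.37 passed (edgeR adjusted p = 0.0291), and it was lost without any 1 of the cured or prion SPO or cured preSPO libraries (log2 1.08 to 1.15). DIT2, the cytochrome P450 of the pathway, is transcribed away from DIT1 across 898 bases on chromosome IV and had log2 values of 0.80 in cured and -0.22 in prion cells, neither of which passed.

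**Figure D2:**
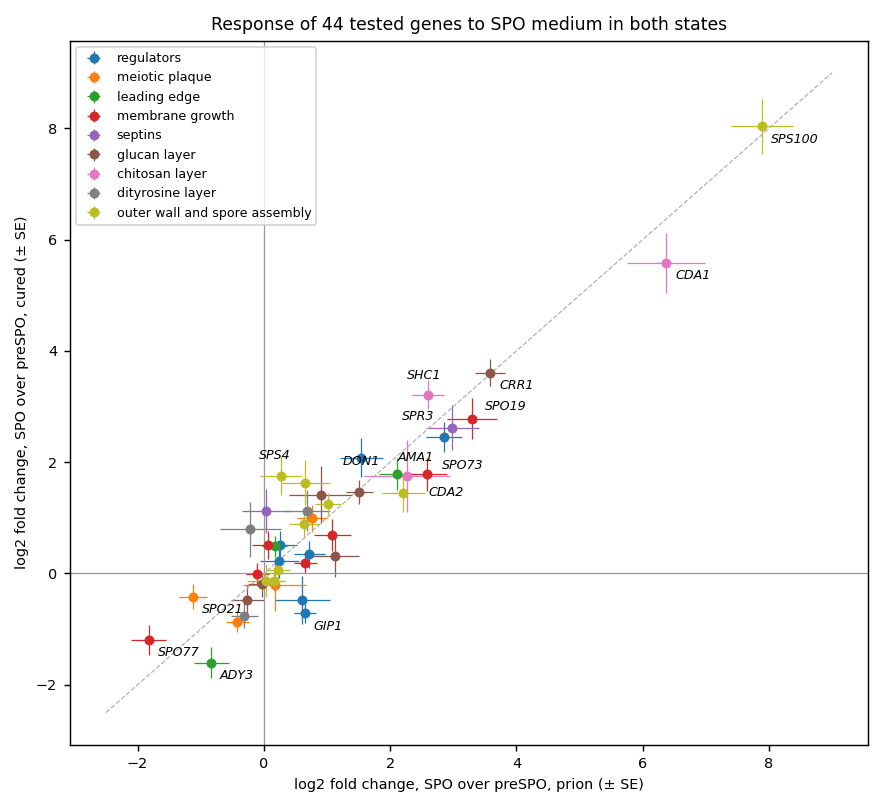
Each point is 1 of the 44 tested genes, placed by its log2 fold change of SPO over preSPO in prion cells (horizontal) and in cured cells (vertical), with bars of 1 standard error, colours for roles and a dashed line of equal response. SPS100, CDA1 and CRR1 lie far up the line, most other genes lie within 3 of 0 on both axes, and GIP1 lies below 0 for cured and above 0 for prion cells.

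Genes of the meiotic plaque, on which the prospore membrane begins, showed small and mixed differences. MPC54 (YOR177C), a plaque subunit, had 29.5 and 37.3 CPM in cured SPO and 28.0 and 33.3 CPM in prion SPO libraries, against 14.3 and 19.2 CPM in cured preSPO and 15.6 and 20.5 CPM in prion preSPO libraries. It rose by 0.99 ± 0.24 and 0.76 ± 0.24 on the log2 scale in cured and prion cells (edgeR adjusted p = 0.0074 and 0.0262). The cured call was lost without cured SPO replicate 2 or cured preSPO replicate 1 (log2 0.79 to 0.80), and the prion call without either prion SPO library or prion preSPO replicate 1 (log2 0.58 to 0.89). SPO21 (YOL091W), its partner subunit, had 16.6 and 19.95 CPM in cured SPO and 19.8 and 16.8 CPM in prion SPO libraries, against 22.7 and 26.5 CPM in cured preSPO and 33.9 and 45.3 CPM in prion preSPO libraries. SPO libraries were the lower ones for SPO21, which fell by 1.12 in prion cells (SE 0.22, edgeR adjusted p = 0.00304), while its cured log2 of -0.42 did not pass. ADY4, which stabilises the plaque, fell by 0.87 in cured cells, and SPO74, the third plaque subunit, did not pass in either state.

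At the leading edge of the membrane, DON1 and ADY3 went opposite ways. DON1 (YDR273W) had 107 and 180 CPM in cured SPO and 133 and 174 CPM in prion SPO libraries, against 35.9 and 47.2 CPM in cured preSPO and 39.8 and 31.8 CPM in prion preSPO libraries. All SPO libraries were higher, with log2 fold changes of 1.79 ± 0.28 in cured and 2.10 ± 0.29 in prion cells. ADY3 (YDL239C), which links the leading-edge coat to the plaque, had 122 and 180 CPM in cured SPO and 104 and 127 CPM in prion SPO libraries, against 450 and 472 CPM in cured preSPO and 256 and 158 CPM in prion preSPO libraries. Both cured preSPO libraries stood above all others, and ADY3 fell by 1.60 in cured cells (SE 0.28, edgeR adjusted p = 0.00149) and by 0.84 in prion cells (SE 0.28, edgeR adjusted p = 0.0308). The prion call was lost without either prion SPO library or prion preSPO replicate 1, with log2 between -1.0 and -0.45. Per length, ADY3 was the most abundant member in cured preSPO libraries, at 113 ± 8.74 TPM (SD, n = 2). SSP1, the coat component needed for the membrane to close properly, had log2 values of 0.48 in cured and 0.17 in prion cells, and neither passed.

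Among genes of membrane growth, SPO19 and SPO73 rose in both states and SPO77 fell in both. SPO19 (YPL130W), an anchored membrane protein made in meiosis, had 13.2 and 17.2 CPM in cured SPO and 13.1 and 16.7 CPM in prion SPO libraries, against 2.63 and 1.95 CPM in cured preSPO and 1.92 and 1.15 CPM in prion preSPO libraries. SPO73 (YER046W), a membrane-extension factor with a dysferlin domain, had 36.7 and 42.7 CPM in cured SPO and 41.7 and 36.2 CPM in prion SPO libraries, against 7.89 and 14.7 CPM in cured preSPO and 5.37 and 7.497 CPM in prion preSPO libraries. The media did not overlap for either gene, and the log2 fold changes of SPO19 and SPO73 were 2.78 and 1.78 in cured and 3.30 and 2.59 in prion cells. SPO77 (YLR341W), which acts with the kinase Sps1 in timing the closure of the membrane, had 4.31 and 6.36 CPM in cured SPO and 5.59 and 5.62 CPM in prion SPO libraries, against 12.5 and 13.0 CPM in cured preSPO and 20.5 and 19.3 CPM in prion preSPO libraries. Every SPO library was below every preSPO library, and SPO77 fell by 1.20 in cured cells (SE 0.28, edgeR adjusted p = 0.00587) and by 1.83 in prion cells (SE 0.28, edgeR adjusted p = 0.000766). SPO20, the sporulation SNARE that lets vesicles fuse with the prospore membrane, passed in prion cells alone at a log2 of 1.08, and SPO75, a membrane protein needed for spore formation, at 0.66. Both calls were lost without prion SPO replicate 1, SPO20 also without prion preSPO replicate 1 (log2 0.92 to 0.93) and SPO75 also without prion preSPO replicate 2 (log2 0.52 to 0.57). SPO71, a pleckstrin-homology protein that sets membrane size, and SPO1, a phospholipase-like protein, did not pass.

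Both sporulation septins, filament proteins that line the growing membrane, rose in cured cells and SPR3 also in prion cells. The shares of all tested genes that rose were 28.6% and 26.2%. SPR3 (YGR059W) had 15.4 and 22.5 CPM in cured SPO and 23.0 and 24.1 CPM in prion SPO libraries, against 2.22 and 3.77 CPM in cured preSPO and 1.79 and 4.04 CPM in prion preSPO libraries. The media were separated, with log2 fold changes of 2.62 ± 0.41 in cured and 2.98 ± 0.42 in prion cells. SPR28 (YDR218C) had 18.6 and 18.8 CPM in cured SPO and 15.7 and 15.2 CPM in prion SPO libraries, against 7.75 and 9.27 CPM in cured preSPO and 8.19 and 21.7 CPM in prion preSPO libraries. The 2 prion preSPO libraries lay on either side of the prion SPO libraries, and the prion log2 was 0.04 ± 0.39. The cured rise of 1.12 ± 0.40 (edgeR adjusted p = 0.0381) was lost without any 1 of the cured or prion SPO or cured preSPO libraries (log2 1.01 to 1.27).

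Of the 7 regulators, 2 rose and 1 fell in cured cells, where 28.6% of all tested genes rose and 28.6% fell, and 4 rose in prion cells, where 26.2% did, with AMA1 and SMK1 higher in both states and GIP1, described with the comparison of states, the one that fell in cured cells. AMA1 (YGR225W), the meiosis-specific activator of the anaphase-promoting complex, had 23.4 and 20.2 CPM in cured SPO and 23.1 and 22.3 CPM in prion SPO libraries, against 3.18 and 4.53 CPM in cured preSPO and 3.07 and 3.17 CPM in prion preSPO libraries. SMK1 (YPR054W), the MAP kinase of spore wall formation, had 20.4 and 13.0 CPM in cured SPO and 15.5 and 15.8 CPM in prion SPO libraries, against 4.57 and 3.34 CPM in cured preSPO and 6.40 and 4.42 CPM in prion preSPO libraries. Neither gene overlapped between media, and AMA1 and SMK1 had log2 fold changes of 2.45 and 2.08 in cured and 2.86 and 1.54 in prion cells. SSP2, which activates Smk1, and the kinase SPS1 did not pass in either state. MIP6, an RNA-binding protein that with its relative PES4 times the translation of middle sporulation messages, passed in prion cells at a log2 of 0.72. That call was lost without any 1 of the prion SPO or of the cured or prion preSPO libraries (log2 0.63 to 0.80). PES4 did not pass in either state.

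Between the states, cured and prion, 1 member passed the test, and that in preSPO medium. In SPO medium 0 of 44 members passed in edgeR's quasi-likelihood test and 0 in DESeq2, with 1 at an unadjusted p under 0.05, where no tested gene was higher and 0.0315% of all tested genes were lower in cured cells. The median log2 difference, cured minus prion, was -0.05 over the members and 0.01 over all tested genes. The single member with a small unadjusted p was DIT1, whose 8.39 and 9.19 CPM in cured SPO libraries lay below the 15.8 and 16.01 CPM in prion SPO libraries without overlap. Its log2 difference was -0.85 (95% interval -1.34 to -0.35, unadjusted p = 0.00401), which did not survive adjustment over all genes (edgeR adjusted p = 0.936). For 33 of the 44 members the whole 95% interval lay within 1 log2 unit of 0, a share that was not counted over all tested genes. It comes from the fit to all 8 libraries, which includes both libraries that go against their labels. Without them some differences grew, as for SPO74 from 0.42 to 1.08 and SPS1 from -0.37 to -0.70. Others shrank, as for GIP1 from -0.13 to -0.04. SPS100 had a state difference of 0.23 in SPO medium with an interval of -0.59 to 1.04, and of -0.60 without both libraries that go against their labels. Without both libraries that go against their labels no member passed either, 0 had an unadjusted p under 0.05, the median was 0.06, 13 of the 44 differences changed sign, and DIT1 had a log2 difference of -0.78.

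**Figure D3:**
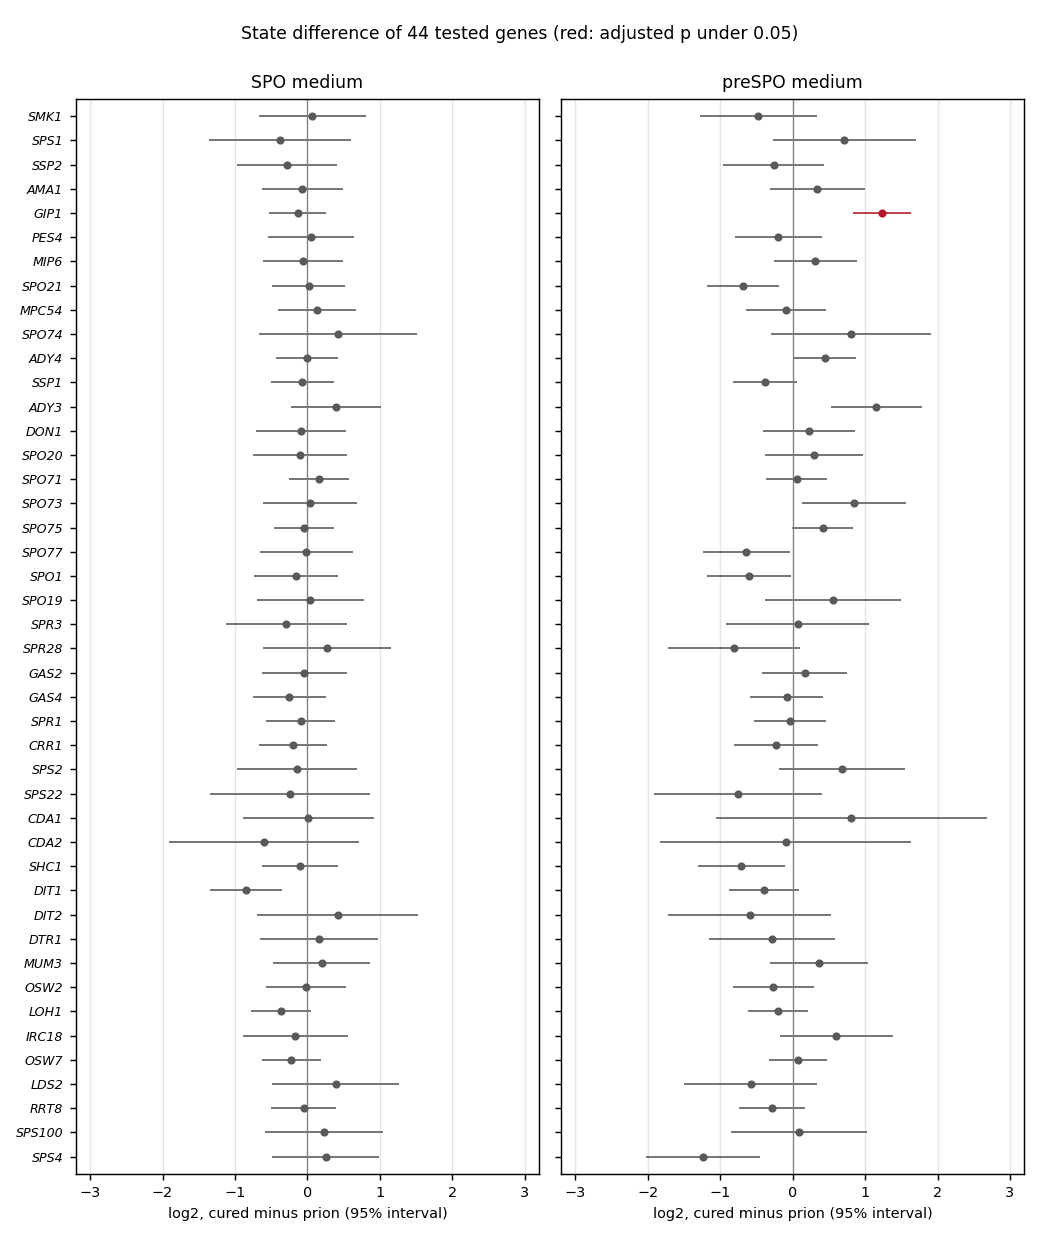
Points are log2 differences, cured minus prion, of the 44 tested genes in SPO medium (left) and preSPO medium (right), with 95% intervals. In SPO medium 42 of 44 points lie within 0.5 of 0, and in preSPO medium 26 do, with GIP1 alone in red at 1.23. Such shares were not counted over all tested genes. Each SPO group holds 1 library that goes against its label by its MET17 counts alone. Without those libraries the SPO differences of SPO74 and SPS1 were 1.08 and -0.70.

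In saturated preSPO cultures 1 of 44 members was higher in cured cells and none was lower, against 0.457% and 0.473% of all tested genes. That member was GIP1 (YBR045C), which directs the phosphatase Glc7 to the septins and is needed for spore wall formation. It had 108 and 104 CPM in cured preSPO libraries, against 51.8 and 38.8 CPM in prion preSPO libraries, a log2 difference of 1.23 (95% interval 0.83 to 1.63, edgeR adjusted p = 0.0297). The groups did not overlap in preSPO medium, whereas in SPO medium GIP1 had 64.2 and 65.0 CPM in cured and 67.2 and 74.5 CPM in prion libraries, a log2 difference of -0.13. The preSPO call was lost without either prion SPO library, either cured preSPO library or prion preSPO replicate 2, each left out alone (log2 1.04 to 1.26, edgeR adjusted p = 0.0892 to 0.136), and without both libraries that go against their labels (log2 1.23, edgeR adjusted p = 0.072). With limma the GIP1 call was also lost on log2(TPM + 1), at a log2 difference of 1.28 and an adjusted p of 0.0553, and on log2(TPM + 0.1), at 1.34 and 0.0734. GIP1 also fell by 0.72 in SPO medium in cured cells (SE 0.17, edgeR adjusted p = 0.00738), a call lost without both libraries that go against their labels (edgeR adjusted p = 0.0733), and rose by 0.65 in prion cells (SE 0.18, edgeR adjusted p = 0.0133). The prion call was lost without prion SPO replicate 2 (log2 0.56, edgeR adjusted p = 0.109), without both of those libraries (log2 0.56, edgeR adjusted p = 0.149) and by library size alone (log2 0.46), and on log2(TPM + 1) the prion log2 was 0.03. ADY3 had the next smallest p, with a log2 difference of 1.16 (95% interval 0.53 to 1.79, edgeR adjusted p = 0.0896), and passed in DESeq2, in both TPM fits and in edgeR without prion preSPO replicate 1. That last fit also called SPR28 and LDS2 lower in cured preSPO, at -1.34 and -1.11.

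The difference between the responses of the states was tested directly, and 0 of 44 members passed in edgeR's quasi-likelihood test, with 2 at an unadjusted p under 0.05, where 0.0158% of all tested genes were higher and none lower. The median of the members was -0.16, but 0.04 without prion SPO replicate 2, 0.09 without cured preSPO replicate 2 and 0.07 without both libraries that go against their labels, where 0 members passed. GIP1 had the smallest p, with an interaction of -1.37 (95% interval -1.93 to -0.81, edgeR adjusted p = 0.154), and -1.27 without both of those libraries (edgeR adjusted p = 0.801). DESeq2 called it (adjusted p = 0.00194), and so did edgeR without prion preSPO replicate 1 (log2 -1.59, edgeR adjusted p = 0.0315). SPS4 was the other, at 1.496 (95% interval 0.42 to 2.58, edgeR adjusted p = 0.276), and its prion preSPO libraries, at 5.25 and 6.15 CPM, stood above its cured preSPO libraries, at 2.35 and 2.45 CPM. The responses had the same sign in both states for 38 of 44 members, but the interaction interval lay within 1 log2 unit of 0 for only 8. Neither number was counted over all tested genes.

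Several members have a counterpart that does the same kind of work in growing cells, and on the TPM scale, which allows for length, 10 of the 11 pairs had the counterpart higher in every group mean. SHC1 alone reversed its pair: it had 12.0 and 14.4 TPM in cured and prion SPO libraries, where SKT5, the activator of chitin synthase III in growing cells, had 5.32 and 5.29 TPM, and in preSPO medium SHC1 had 2.43 and 3.71 TPM beside 27.3 and 16.7 TPM for SKT5. CRR1 stayed below its counterpart CRH1, at 12.8 and 17.4 TPM in cured and prion SPO libraries beside 36.9 and 36.5 TPM, while in preSPO libraries it had 1.98 and 2.23 TPM beside 59.5 and 77.8 TPM. SPR3 had 3.68 and 5.57 TPM in cured and prion SPO libraries beside 9.26 and 10.04 TPM for the septin CDC12. GAS4 stayed below GAS1, at 7.07 and 10.3 TPM in cured and prion SPO libraries beside 49.0 and 53.4 TPM. Of 27 listed counterparts, 4 rose and 11 fell in cured cells, and 3 rose and 16 fell in prion cells, with a median log2 of -0.29 and -0.68. Over all tested genes 28.6% rose and 28.6% fell in cured cells, and 26.2% rose and 27.1% fell in prion cells. In preSPO medium 3 of these 27, GAS1, ECM33 and SSO2, were lower in cured cells, against 0.473% of all tested genes. These 3 calls were lost when either prion SPO library was left out.

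**Figure D4:**
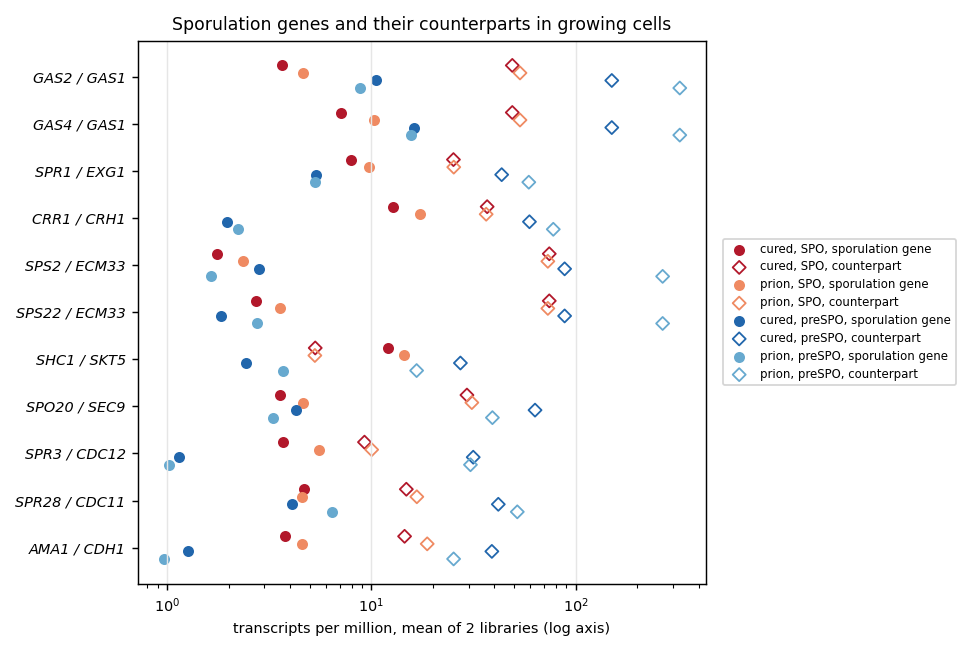
Each row is a pair of a sporulation gene (filled circles) and its counterpart in growing cells (open diamonds), plotted as mean TPM of 2 libraries on a log axis for the 4 groups. The SHC1 circles pass the SKT5 diamonds in SPO medium, at 12.0 TPM beside 5.32 TPM in cured cells, and all other circles stay left of their diamonds.

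Genes that control many of these members were also measured. NDT80, the activator, had 44.9 and 51.1 CPM in cured SPO and 54.4 and 56.1 CPM in prion SPO libraries. In cured preSPO libraries it had 31.0 and 31.2 CPM, and in prion preSPO libraries 30.5 and 24.6 CPM. It rose by 0.63 and 1.01 on the log2 scale in cured and prion cells (edgeR adjusted p = 0.0112 and 0.00129), although on the TPM scale its cured mean was 7.63 ± 1.56 in SPO and 9.76 ± 1.05 in preSPO libraries (SD, n = 2). SUM1, the repressor, rose by 1.25 and 1.31. IME1, the master activator of meiotic entry, rose by 2.84 and 3.17, while its target kinase gene IME2 had 0.29 in cured cells, which did not pass, and 0.95 in prion cells, which did. CLB1 and CDC5, 2 further targets of Ndt80, had log2 values of -0.54 and -0.45 in cured cells, which did not pass, and fell by 0.83 and 0.91 in prion cells. The lists that follow are read against the same shares of all tested genes, 28.6% higher and 28.6% lower in cured and 26.2% and 27.1% in prion cells. Of 15 other listed genes linked to sporulation, 9 rose and 1 fell in cured cells and 10 rose and none fell in prion cells, with SPS19 highest at 5.25 and 5.46. Of 16 early meiotic genes 11 rose and 1 fell in cured and 12 rose and 1 fell in prion cells. Haploid-specific genes, low in diploid cells, were checked as markers of another cell type: 8 of 12 tested rose in cured and 7 in prion cells, their summed level was 122 to 209 TPM in SPO and 80.8 to 145 TPM in preSPO libraries, MFA1 was at 0 in all libraries, and their part in the results was not tested.

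Vts1 binds hairpins with a CNGG or CNGGN loop, so the coding sequences were searched for such a loop on a stem of 5 base pairs, with G-U pairs allowed. Such a hairpin occurred in 9 of 46 members (19.6%), against 18.5% of all 5995 coding sequences, and its density was 0.136 per kb in members and 0.145 per kb in all. With stems of 4 or 6 pairs the shares were 34.8% and 8.70% in members, beside 36.6% and 8.49% in all. The 9 are printed with the loop in capitals.
SPS1: tggctCCGGAagttg
SSP2: agactCTGGAagttt
PES4: aaattCAGGaattt
ADY3: ttgggCAGGttcag
SPO20: ttgttCAGGAagcag
CRR1: tggtgCCGGTtgttg
CDA1: ttgttCTGGGgataa
DIT1: agatgCAGGTcgttt
SPS100: tggttCAGGaattg
GIP1, the member called between states in preSPO medium, had no such hairpin in its coding sequence. In edgeR none of the 9 passed between states in preSPO medium, and their log2 differences varied in sign. They were 0.71 for SPS1, -0.26 for SSP2, -0.20 for PES4, 1.16 for ADY3 and 0.29 for SPO20. CRR1 had -0.23, CDA1 0.81, DIT1 -0.40 and SPS100 0.08. Whether hairpins bear on the state differences was not tested. A match of letters is a description and does not show that Vts1 bound there. Untranslated regions were not searched.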

How the data were processed

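The submitters' processing notes name kallisto and build R64; neither its version nor its index is given in the sources here. Every table lists 6713 targets. Estimated counts, as deposited by the authors, are fractional in part and were rounded to whole numbers for testing. TPM values, also deposited by the authors, scale those counts by target length, and target lengths equal spliced coding lengths for 5990 of 5995 genes compared with RefSeq. Reads shared by related genes such as CDA1 and CDA2 are divided by estimation, and whether strand was used is not stated. No member overlaps another annotated RefSeq gene.

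Genes passing edgeR's filterByExpr (6346) were fitted with edgeR 4.0.16 (R 4.3.3) with TMM factors, a group-means model over all 8 libraries and two-sided quasi-likelihood tests without a replicate block, adjusted by Benjamini-Hochberg over all tested genes, with calls at adjusted p under 0.05. All libraries share 1 estimate of spread with 4 residual degrees of freedom. Alternatives used DESeq2 1.42.0 and limma 3.58.1 on log2(TPM + 1) and log2(TPM + 0.1), other scaling and filters, thinning to the smallest library, omitted libraries and blocks. Motifs and hairpins were searched with Python 3.11.15 in the RefSeq R64 genome.

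Values in every library are given for the members with the largest and smallest mean response among those called in both states (3 each), the 2 members of each role with the smallest p, and the members leading or called in each comparison of states. Members and lists were chosen with earlier results of these data known. At 3 counts per library, the smallest level taken as counted, CPM ran from 0.0551 to 0.68, and this covers counting error only. Library pairs of 1 group differed by more than sampling noise (chi-square per degree of freedom 34.8 or more), so none was counted as a duplicate.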

Additional observations from a re-analysis of the deposited data

How the results depend on the processing

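Members called higher in SPO than in preSPO medium in cured cells numbered 9 on log2(TPM + 1) and 9 on log2(TPM + 0.1), where edgeR gave 21. Over all 6346 tested genes, cured calls in either direction numbered 4013 and 3985 on these scales and 3633 in edgeR. Members called lower in cured cells numbered 8 by library size alone, 13 and 12 on the 2 TPM scales and 2 without both libraries that go against their labels, where edgeR gave 5. In prion cells 10 members were higher on either TPM scale, where edgeR gave 20. Over all tested genes, prion calls in either direction numbered 3184 and 3114 on the TPM scales and 3380 in edgeR. OSW2 in cured cells reversed, to -0.077 on log2(TPM + 1) and -0.095 on log2(TPM + 0.1), where the median of all genes was -0.89 on the first of these scales. In preSPO medium, members higher in cured cells numbered 2 by DESeq2, 0 without both libraries that go against their labels, and 0 to 2 when single libraries were left out, and members lower numbered 0 to 2. In the interaction 1 member was lower by DESeq2 and 0 to 1 when single libraries were left out. Over all tested genes DESeq2 called 441 between states in preSPO medium and 133 in the interaction, where edgeR called 59 and 1. Of 49 member calls between media, 22 were lost on both TPM scales, 9 of them under no other alternative.

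With the replicate number as a block, 27 members were called between media in cured and 24 in prion cells, 0 between states in SPO medium, 1 in preSPO medium and 0 in the interaction; with the culture as the block the counts were 27, 24 and 0. Same-numbered libraries deviated together with r = 0.46 across genes for cured and 0.08 for prion cultures. Between the states, which cannot share a culture, r was 0.35 in SPO medium and 0.19 in preSPO medium. It was 0.14 for cured SPO with prion preSPO and -0.02 for prion SPO with cured preSPO. The pairing was therefore not taken as shown. The cause of each change was not tested. Depth limits the low members: OSW1 and LDS1 were below the count filter and passed no test in the fit without it, and CDA2 and CDA1 rest on single-digit counts in most preSPO libraries.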

Other observations

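In RefSeq, 4 pairs of members are neighbours on a chromosome with no other annotated gene between them, and their 2 genes did not always respond alike. DIT2 and DIT1 diverge from a shared stretch of 898 bases on chromosome IV. LOH1 and IRC18 diverge from 887 bases on chromosome X, and in cured and prion cells IRC18 rose by 1.44 and 2.21 on the log2 scale while LOH1 had 0.07 and 0.23, which did not pass. RRT8 and LDS2 follow each other on 1 strand of chromosome XV with 303 bases between, and both rose in cured cells, by 1.25 and 1.63, while in prion cells RRT8 rose by 1.01 and LDS2, at 0.66, did not pass. SPS2 and SPS1 lie 262 bases apart on 1 strand of chromosome IV, and in cured and prion cells SPS2 had log2 values of 0.31 and 1.13 beside -0.48 and 0.61 for SPS1, of which the prion value of SPS2 alone passed.

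The URS1 letters GCCGCC, bound by Ume6 in early meiotic promoters, occurred on either strand in 4 of 46 member promoters (8.70%), against 5.16% of all 5994, in SMK1, MPC54, ADY3 and DON1. The 30-base windows of SMK1, MPC54 and ADY3 are read on the strand of the gene, with the match in capitals.
SMK1: gcgaaaaaaataGGCGGCaaaaggcgggtg
MPC54: gcctgatctctaGCCGCCctcggctctatc
ADY3: tatcgcgctttaGCCGCCcattgtacaata
SMK1, MPC54 and DON1 rose in SPO medium in both states and ADY3 fell in both. The windows lie at chrXVI:666117-666146, chrXV:667349-667378 and chrIV:28875-28904 of build R64, those of MPC54 and ADY3 on the minus strand.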
